A study of Mus musculus with 12 samples.

Results

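The 7 globin genes of the mouse described here are those for the alpha-like chains Hba-x, Hba-a1 and Hba-a2 and those for the beta-like chains Hbb-y, Hbb-bh1, Hbb-bs and Hbb-bt. They were chosen by gene symbol, and all 7 had a row among the 31053 genes counted in embryos of day E16.5 and among the 22597 genes counted in pups of postnatal day 3 (P3). The livers came from Jag1+/+, Jag1Ndr/+ and Jag1Ndr/Ndr mice, all bred from Jag1Ndr/+ parents. Jag1 encodes a ligand of Notch receptors that is needed for bile duct formation, and Ndr is an inherited mutant allele of it, present in every cell. Per the labels, 2 individuals of each genotype and stage gave 12 samples of dissociated liver cells, which were profiled with 10x Genomics droplets after magnetic removal of dead cells. Homozygous pups at P3 were recognised by jaundice, and TrypLE was added to the digestion at E16.5 only. Stage and digestion therefore cannot be told apart. The gene list and the version of the counting software (Cell Ranger 3.1.0 at E16.5 and 3.0.2 at P3) also differed with stage and cannot be told apart from it.

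Some of the 12 samples held the same cells. In embryos, the second Jag1+/+ sample and the second Jag1Ndr/+ sample had the same matrix, entry for entry, which is called the shared library here and counted once. In pups, Jag1+/+ replicate 2 contained each of the 15754 barcodes of Jag1Ndr/+ replicate 2, and Jag1Ndr/Ndr replicate 1 held 19927 barcodes (68.4%) of Jag1+/+ replicate 1. Both P3 matrices labelled Jag1+/+ thus reappeared under other genotypes, so 4 P3 libraries were used without a genotype: A (Jag1+/+ replicate 1), B (Jag1+/+ replicate 2), C (Jag1Ndr/Ndr replicate 1 without the barcodes of A) and D (Jag1Ndr/+ replicate 1). The 5 libraries of E16.5 shared at most 0.94% of their barcodes with any other library and had 18357 to 29034 barcodes that passed (at least 1000 UMIs, at most 15% mitochondrial) with medians of 5325 to 9256 UMIs, where a UMI stands for 1 captured mRNA molecule. The 4 libraries of P3 had 15024 to 21504 with medians of 2961 to 6235 UMIs. Clusters were made and named without the globin genes, and the clusters that a list of red cell markers named erythroid-like held 62355 cells at E16.5 and 30500 at P3.

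Haemoglobin is built from pairs of alpha-like and beta-like chains. In the mouse, the large primitive red cells that arise in the yolk sac use the embryonic genes Hba-x (zeta globin), Hbb-y (epsilon-y globin) and Hbb-bh1 (beta-h1 globin), whereas the definitive red cells made in the fetal liver use the adult genes Hba-a1 and Hba-a2 for the alpha chain and Hbb-bs and Hbb-bt for the beta chain. The embryonic genes are silenced as definitive cells replace primitive ones, a change known as haemoglobin switching, and the fetal liver is the main site of red cell formation before the bone marrow takes over.

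In GENCODE M21 on GRCm38 the alpha-like genes lie on the plus strand of chromosome 11 in the order in which they are used, with Hba-x at chr11:32276400-32278116, Hba-a1 at chr11:32283511-32284465 and Hba-a2 at chr11:32296489-32297298. The beta-like genes lie on the minus strand of chromosome 7, with Hbb-y at chr7:103851749-103853216, Hbb-bh1 at chr7:103841637-103843164, Hbb-bs at chr7:103826534-103828096 and Hbb-bt at chr7:103812524-103813996. Each of the 7 genes has 3 exons. The 120 bases before the RefSeq start site are given below, because the alpha and beta genes of both periods share short promoter elements. They are read 5′ to 3′ on the gene's strand. The set of RefSeq promoters used here (GRCm38.p6) had a window for 6 of the genes and none for Hbb-bh1. Its start sites differ from the GENCODE gene ends given above. The windows of Hba-x, Hba-a1 and Hbb-bs lie wholly inside the GENCODE gene and that of Hbb-bt mostly so. Capitals mark, on either strand, the letters CACCC known from the box bound by Klf1, the CCAAT box, and TGACC, the core of the direct repeat bound by the orphan nuclear receptors Nr2c1 and Nr2c2.
Hba-x, chr11:32276480-32276599: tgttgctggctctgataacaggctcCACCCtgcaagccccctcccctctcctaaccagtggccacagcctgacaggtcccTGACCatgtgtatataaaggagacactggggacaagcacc
Hbb-y, chr7:103853208-103853327: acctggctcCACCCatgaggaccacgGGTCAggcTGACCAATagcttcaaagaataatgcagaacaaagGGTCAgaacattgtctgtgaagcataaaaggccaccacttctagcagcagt
Hba-a1, chr11:32283552-32283671: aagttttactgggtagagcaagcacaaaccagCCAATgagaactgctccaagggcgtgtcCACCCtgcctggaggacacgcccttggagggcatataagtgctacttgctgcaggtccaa
Hba-a2, chr11:32296372-32296491: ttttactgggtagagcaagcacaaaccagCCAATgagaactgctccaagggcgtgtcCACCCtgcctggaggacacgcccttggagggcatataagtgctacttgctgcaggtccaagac
Hbb-bs, chr7:103827929-103828048: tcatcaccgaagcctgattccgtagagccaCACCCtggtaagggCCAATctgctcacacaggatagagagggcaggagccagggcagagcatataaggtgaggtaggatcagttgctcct
Hbb-bt, chr7:103813924-103814043: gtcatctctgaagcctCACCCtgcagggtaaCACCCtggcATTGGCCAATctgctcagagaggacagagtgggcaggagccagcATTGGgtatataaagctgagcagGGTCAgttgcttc

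All 6 windows held CACCC, which 31.7% of the 32851 RefSeq windows of this length held. CCAAT was present in 5 of the 6, all but that of Hba-x, against 21.3% of all windows. TGACC was present in 3, once in Hba-x, 3 times in Hbb-y and once in Hbb-bt, against 18.9% of all windows, and in Hbb-y 1 of these copies overlaps the CCAAT box. The windows of Hba-a1 and Hba-a2 were identical over all 117 aligned bases and their transcripts over 537 of 538 (99.81%). Reads of these 2 genes can hardly be told apart, and how the authors' counting split them is not given in the sources used here. Hbb-bs and Hbb-bt were less alike, with 580 of 630 transcript bases identical (92.06%) and 76.23% of the promoter window, and the embryonic pair Hbb-y and Hbb-bh1 shared 72.66% of transcript bases.

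Levels are given below as UMIs of a gene per 1000000 UMIs of all other, non-globin genes, so that a change in one globin gene cannot shift the scale of another. They are not divided by transcript length, so they are compared between libraries and not between genes. In erythroid-like cells the mRNA of the embryonic genes was rare and that of the adult genes very abundant at both stages. All 7 genes had a higher fitted level at E16.5 than at P3, by 2.31-fold (Hba-a2) to 12.6-fold (Hbb-y), and 6 of the 7 passed the test (edgeR quasi-likelihood test on counts summed per library, Benjamini-Hochberg adjustment over 11900 genes). Fitted differences and folds, here and below, use the fit's own scaling of libraries (TMM), so they are not ratios of the levels printed. In this fit 59.3% of all genes passed, 28.6% as higher at E16.5, so passing it is common. The median log2 difference was 2.18 over the 7 genes and -0.03 over all genes tested. The levels are sums over erythroid-like clusters that differed between the stages. Globin made up 32.3% to 75.8% of UMIs in the clusters of E16.5 (means over libraries). At P3 it made up 1.10%, 9.83% (1 library) and 19.1% in clusters 15, 29 and 14, and 53.1% and 62.8% in clusters 2 and 23. It made up 76.4%, 86.8% and 89.2% in P3 clusters 0, 1 and 5. The part of this in the stage differences was not tested. Because nothing states that the libraries came from separate litters, the p-values measure the spread between these libraries.

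Hba-x, the embryonic alpha-like gene, stood at 9.75 in Jag1+/+ replicate 1, 36.9 in the shared library, 75.6 in Jag1Ndr/+ replicate 1, and 82.5 and 68.0 in Jag1Ndr/Ndr replicates 1 and 2. At P3 it stood at 8.49, 23.4, 4.04 and 6.63 in libraries A to D. At E16.5, 4 of the 5 libraries lay above every library of P3, while Jag1+/+ replicate 1 lay below library B and above libraries A, C and D. The fitted difference in Hba-x was 2.57 ± 0.64 on the log2 scale (SE; 5.94-fold; adjusted p = 0.0044). It was 3.32 without library B and 3.61 without libraries A and B, and it ran from 2.25 to 3.61 over all alternatives.

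Hbb-y, the embryonic beta-like gene expressed longest in primitive red cells, stood at 15.3, 53.7, 232, 131 and 114 in the same order at E16.5. At P3 it stood at 2.34, 30.4, 5.38 and 2.26 in libraries A to D. Again 4 of the 5 libraries of E16.5 lay above all of P3, and library B was the one that reached into their range. In the erythroid-like cells of library B, 1 barcode held 699 of the 836 Hbb-y UMIs. The difference in Hbb-y was 3.66 ± 0.94 (SE; 12.6-fold; adjusted p = 0.0054). Without library B the log2 difference in Hbb-y was 5.27, without libraries A and B it was 5.08, and without erythroid-like clusters 1 of E16.5 and 5 of P3 it was 4.92. Over all alternatives it ran from 3.14 to 5.27.

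Hbb-bh1, the other embryonic beta-like gene and the first to decline in primitive cells, stood at 14.8, 23.1, 5.78, 15.1 and 30.4 at E16.5. At P3 it stood at 0.260 and 0.364 in libraries A and B and at 5.96 and 6.21 in C and D. The order of the libraries was thus not that of Hbb-y: the lowest E16.5 library for Hbb-bh1, Jag1Ndr/+ replicate 1, was the highest for Hbb-y, and library B, the highest of P3 for Hbb-y, was near the lowest for Hbb-bh1. Hbb-y made up 50.8%, 69.9%, 97.6%, 89.7% and 79.0% of the embryonic beta-like UMIs at E16.5 and 90.0%, 98.8%, 47.5% and 26.7% at P3. The stage difference in Hbb-bh1 was 2.68 ± 0.75 (SE; 6.39-fold; adjusted p = 0.0090), and it was 1.72 without libraries A and B.

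Of the adult genes, Hbb-bt changed the most. It stood at 274776, 150388, 306871, 382909 and 259986 at E16.5 and at 93647, 37953, 61928 and 94240 at P3, and it was the only one of the 7 genes whose stages did not overlap. For Hba-x and Hbb-y the overlap came from library B, as given above. How many of all genes tested show no overlap between the stages was not counted. A lack of overlap is therefore a description only, here and below. The difference in Hbb-bt was 2.18 ± 0.40 (SE; 4.52-fold; edgeR adjusted p = 0.00068). Hbb-bs, the other adult beta gene, stood at 866510, 459418, 1326848, 1669313 and 817653 at E16.5 and at 588858, 353109, 380925 and 345927 at P3. The shared library fell into the range of P3, and the difference in Hbb-bs was 1.55 ± 0.45 (SE; 2.93-fold; adjusted p = 0.011).

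The adult alpha gene Hba-a1 stood at 496589, 191853, 313535, 585950 and 206366 at E16.5 and at 229261, 122402, 123265 and 172777 at P3. The shared library and Jag1Ndr/Ndr replicate 2 lay below library A, and the difference was 1.39 ± 0.44 (SE; 2.63-fold; adjusted p = 0.016). This call rested on the set of P3 libraries: without library C the edgeR adjusted p was 0.061, and without libraries A and B it was 0.054. Hba-a2, its near copy, varied more between libraries of 1 stage than any other adult gene, spanning 21989 to 236386 in embryos and 4362 to 161563 in pups, and its difference of 1.21 ± 0.87 (SE) was within that spread (edgeR adjusted p = 0.253). It was 2.17 without library A and 2.03 without libraries A and B, where it did not pass either.

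**Figure D1:**
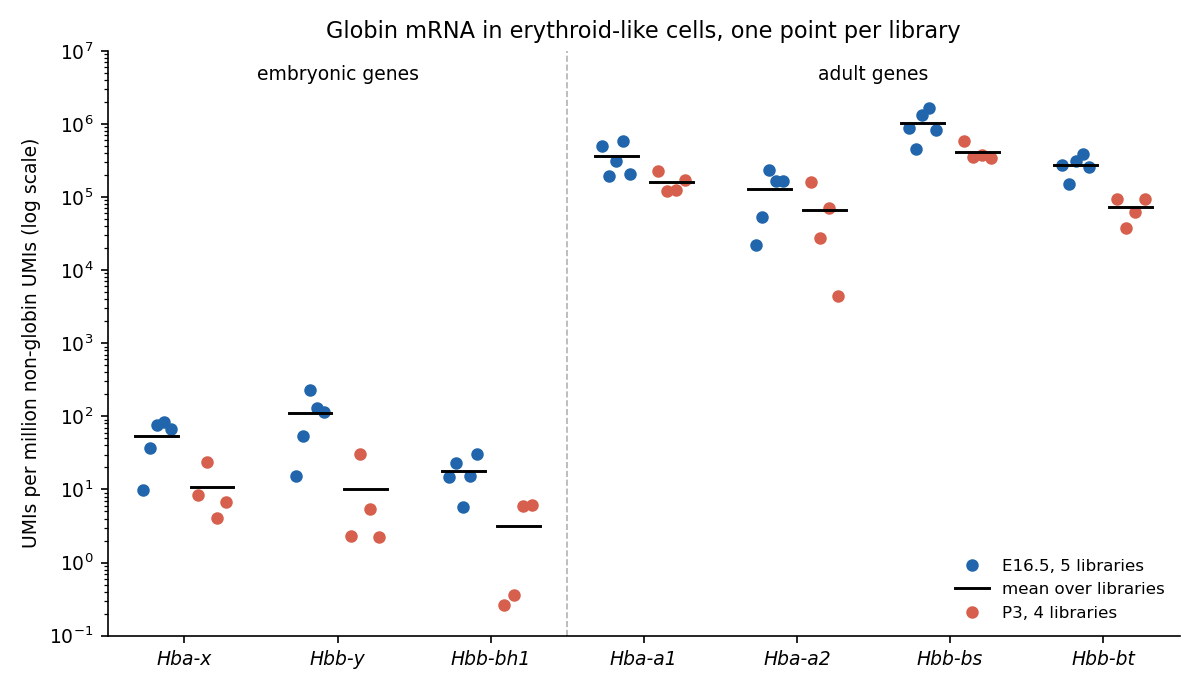
Level of each globin gene in erythroid-like cells, in UMIs per 1000000 non-globin UMIs on a log axis. Each point is a library (5 at E16.5, 4 at P3) and each black line is the mean over libraries. Means are lower at P3 for each of the 7 genes. Of these 7, Hbb-bt alone shows no overlap between the stages, and the share of all genes without overlap was not counted.

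The 3 embryonic genes and 3 of the 4 adult genes, all but Hba-a2, were lower at P3 by the test, and no stage difference in the share of globin mRNA that was embryonic passed after adjustment. Hba-x made up 0.00188%, 0.0150%, 0.0138%, 0.0110% and 0.0184% of the alpha-like UMIs of erythroid-like cells at E16.5 and 0.00217%, 0.0156%, 0.00209% and 0.00374% at P3. The means were 0.0120% ± 0.0063 (SD, n = 5) and 0.0059% ± 0.0065 (SD, n = 4), the groups overlapped, and the difference did not exceed the spread (exact permutation test, two-sided, p = 0.270, adjusted p = 0.405 over the 6 shares compared between the stages). The P3 mean was 0.0027% without library B and 0.0119% over all passing barcodes. Hbb-y and Hbb-bh1 together made up 0.00264%, 0.0126%, 0.0146%, 0.00713% and 0.0134% of the beta-like UMIs at E16.5 and 0.00038%, 0.00787%, 0.00256% and 0.00192% at P3. Jag1+/+ replicate 1 and Jag1Ndr/Ndr replicate 1 lay below library B, and the means of 0.0101% ± 0.0050 (SD, n = 5) and 0.0032% ± 0.0033 (SD, n = 4) did not differ beyond the spread after adjustment (exact permutation p = 0.0794, adjusted p = 0.238). The P3 mean of this share depended on few barcodes and on library B. It was 0.00162% without library B, 0.00156% without the barcodes of at least 25% embryonic globin described further on, and 0.00160% over cells of at least 2000 UMIs. In each of the latter 2 settings the stages did not overlap, and the exact permutation p was 0.0159, the smallest this design allows (adjusted p = 0.0952).

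At E16.5 the embryonic genes were detected in cells of other types at shares close to those in erythroid-like cells, which were the higher by a small amount in 5 of 5 libraries for each of the 3 genes. The share of cells with at least 1 Hbb-y UMI was 2.16%, 5.18%, 19.01%, 11.5% and 14.5% in erythroid-like cells of the 5 libraries and 1.65%, 5.10%, 18.3%, 10.0% and 13.3% in all other classes of the same libraries. The exact 95% intervals of the paired shares overlapped in 4 of 5 libraries for Hbb-y, and likewise in 4 of 5 for Hba-x (1.91% to 10.5% in erythroid-like cells, 1.78% to 9.73% in the others) and in 4 of 5 for Hbb-bh1 (1.01% to 5.29% and 0.894% to 4.05%). In the remaining library of each gene the share in erythroid-like cells was the higher, at 11.5% against 10.0% for Hbb-y, 10.5% against 8.47% for Hba-x and 5.29% against 4.05% for Hbb-bh1. Median depths were 4960 to 9194 UMIs in erythroid-like cells and 7546 to 9141 in the others. The shares of erythroid-like cells are to be read beside those of the other cells, whose source was not tested. The part of free RNA in the embryonic UMIs of erythroid-like cells, and so in the stage differences above, was not tested.

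At P3 the beta-like embryonic genes were detected at low shares of erythroid-like cells, which lay above those of the other cells in 4 of 4 libraries for Hbb-y and in 2 of 4 for Hbb-bh1. Hbb-y had a UMI in 0.448%, 1.73%, 0.919% and 0.336% of erythroid-like cells in libraries A to D, against 0.116%, 1.03%, 0.0978% and 0.0189% of the other cells, and the intervals did not overlap in any of the 4. Hbb-bh1 had a UMI in 1.97% of erythroid-like cells of library C and 1.11% of library D, against 0.117% and 0.0379% of the others. In libraries A and B it was found in 4 of 7584 and 8 of 6589 erythroid-like cells, with intervals that overlapped those of the other cells (0 of 9504, with an interval up to 0.0388%, and 5 of 7939). For Hba-x the intervals overlapped in 3 of 4 libraries, and in library C erythroid-like cells were above the others (0.757% against 0.313%). Median depths at P3 were 2692 to 5558 UMIs in erythroid-like cells and 2936 to 6175 in the others. These shares were not compared between the stages, whose depths differ, and the intervals cover counting error only.

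Embryonic UMIs also took up a larger share of the alpha-like globin found in non-erythroid cells than of that in erythroid-like cells. The share is taken of mostly adult globin, which was lower in the other classes. At E16.5 Hba-a1 averaged 947 UMIs per erythroid-like cell and 306 to 487 in the other named classes, and Hba-x 0.141 and 0.0454 to 0.182. At P3 Hba-a1 averaged 543 and 18.5 to 108, and Hba-x 0.0395 and 0.0035 to 0.130. A larger share is thus not by itself a higher embryonic level. For Hba-x the share was larger in the other classes in 5 of 5 libraries at E16.5 (0.00514% to 0.0423%) and in 4 of 4 at P3, with exact 95% intervals that did not overlap. These intervals cover counting error only and treat UMIs as separate, although few barcodes carried much of the embryonic globin. In library A the Hba-x share of the other classes was 0.0245%, and 0.00509% without the barcodes of at least 25% embryonic globin. The embryonic beta-like share was higher in the other classes in 4 of 5 libraries at E16.5 and lower in Jag1Ndr/+ replicate 1 (0.0131% against 0.0146%). At P3 it was higher in libraries A and B, and the intervals overlapped in C and D. Without the barcodes of at least 25% embryonic globin the intervals overlapped in A too, where the other classes then had 0.00076% against 0.00038%. Library B stood apart, with 0.690% embryonic alpha-like and 0.258% embryonic beta-like globin in its other classes, and with 0.492% and 0.0969% when those barcodes were left out.

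**Figure D2:**
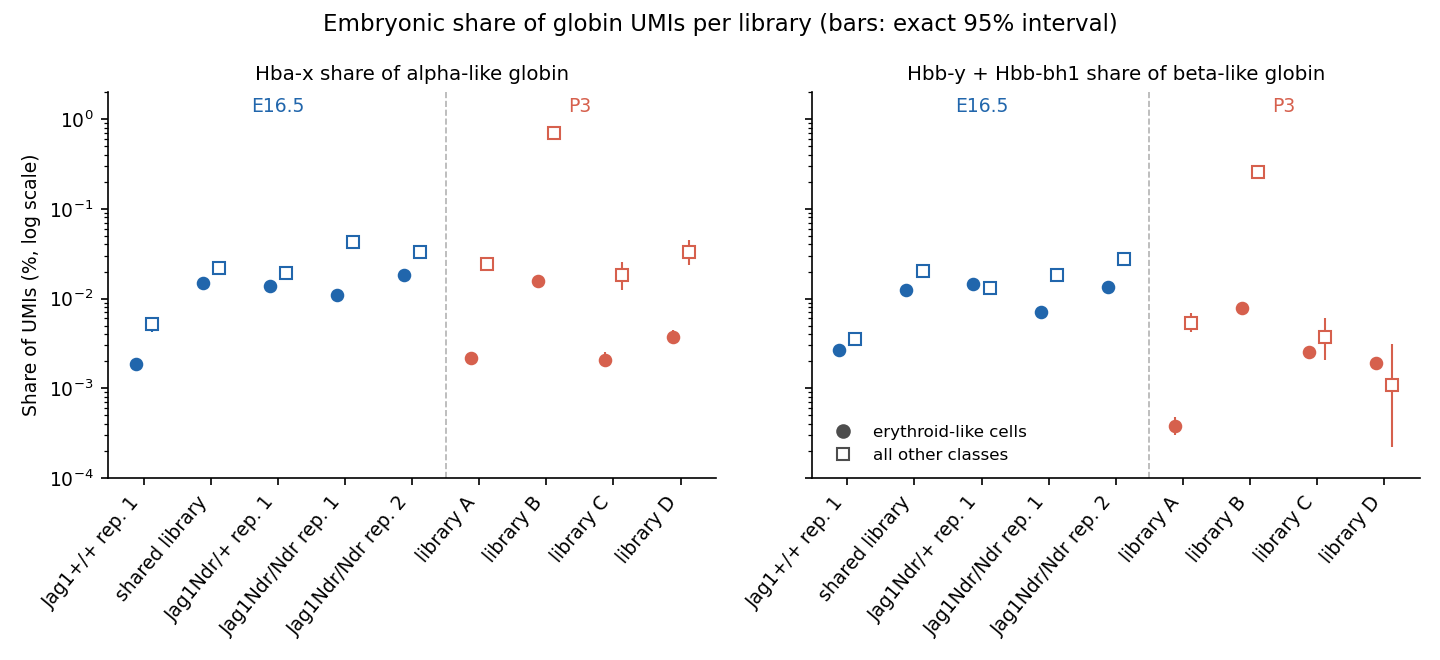
Embryonic share of the alpha-like UMIs (left) and of the beta-like UMIs (right) in percent on a log axis, for the 5 libraries of E16.5 and the 4 of P3. Filled circles are erythroid-like cells, open squares all other classes, and bars exact 95% intervals of counting error. The squares lie above the circles in all 9 libraries for Hba-x, and the squares of P3 library B reach 0.690% and 0.258%. The adult globin that makes up most of each denominator was lower in the other classes.

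Globin UMIs were also found in cells of other types, in larger numbers at E16.5 than at P3. At E16.5 the median cell of every named class other than erythroid-like held 849 to 2493 globin UMIs, and globin made up 13.04% to 26.7% of all UMIs over these classes together. At P3 the medians were 10 to 52 globin UMIs and 1.07% to 2.74% of UMIs. Erythroid-like cells had medians of 2470 to 7197 globin UMIs in embryos and 1533 to 4048 in pups. The adult genes Hba-a1, Hbb-bs and Hbb-bt were highest in erythroid-like cells at both stages, by more than the spread between libraries, with Hbb-bs at 2677 ± 1066 UMIs per erythroid-like cell against 1504 ± 557 in the next class, hepatocyte-like cells, at E16.5 (SD, n = 5). At P3 Hbb-bs stood at 1433 ± 522 and 319 ± 165 in the same classes (SD, n = 4). The classes below erythroid-like cells did not differ from their neighbours in this order beyond the spread. The 3 embryonic genes had no class that stood above the next beyond the spread at either stage: Hbb-y averaged 0.124 ± 0.249 UMIs per dendritic-like cell, the highest class of P3, where library B had 0.497 and the other 3 libraries had 0, and 0.0399 ± 0.0583 per erythroid-like cell. The part of free RNA in the globin of erythroid-like cells, and so in the stage differences of the adult genes, was not tested.

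**Figure D3:**
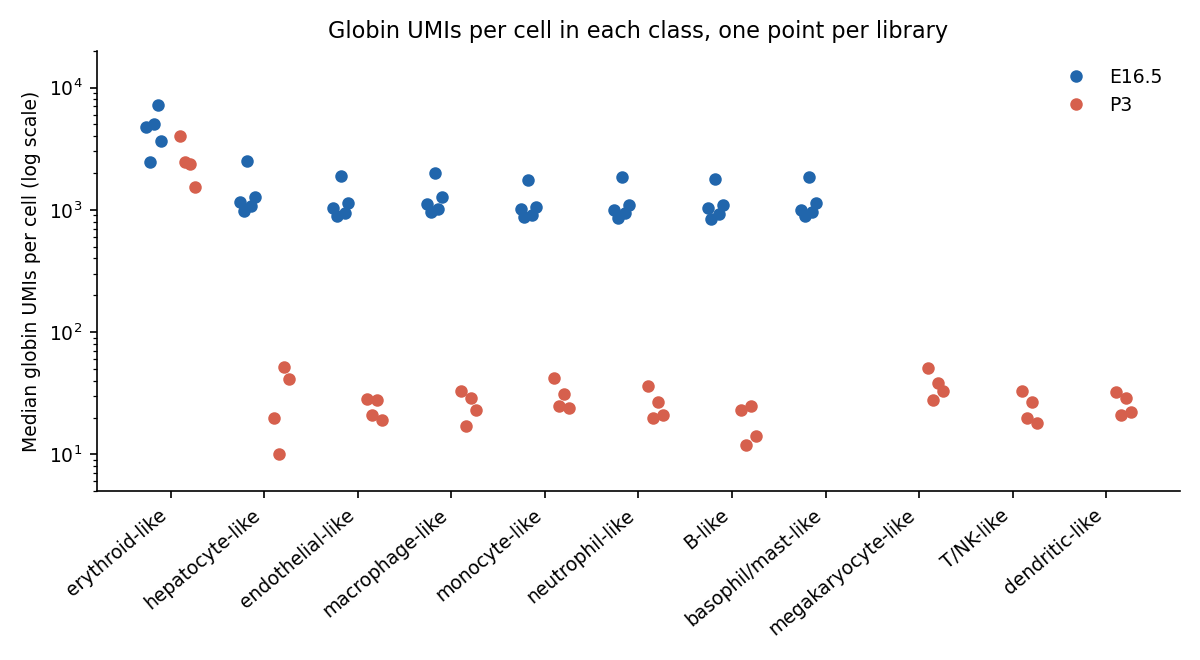
Median number of globin UMIs per cell on a log axis in each named cell class, with a point per library (5 at E16.5, 4 at P3). A class without points at a stage was not named there. Non-erythroid classes lie between 849 and 2493 at E16.5 and between 10 and 52 at P3, while erythroid-like cells lie between 1533 and 7197.

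Much of the embryonic globin of a library lay in few barcodes. In library B, 10 of the 17553 barcodes carried 82.7% of all Hbb-y UMIs, and 1 barcode alone carried 699 of 1953. The top 10 carried 68.4%, 52.1% and 59.3% in libraries A, C and D, which had only 155, 188 and 81 Hbb-y UMIs. At E16.5 the top 10 barcodes carried 27.1% to 52.8% of 719 to 15092 Hbb-y UMIs, so library C fell within the range of that stage, while 28.9% to 46.7% of the E16.5 UMIs were the only Hbb-y UMI of their barcode, against 10.4% to 48.4% at P3. For Hba-x the top 10 carried 10.8% to 33.6% of 657 to 5223 UMIs in embryos, against 50.1% to 88.9% of 183 to 1975 in pups. Those UMIs lay in 366 to 3017 barcodes of a library in embryos and in only 50 to 260 in pups. A top-10 share rises when fewer barcodes hold a UMI, so it does not by itself compare the stages. Hbb-bh1 in library C was spread more widely, with 94.2% of its 191 UMIs found singly and no barcode above 6.

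In 24 barcodes the embryonic genes reached at least 25% of the alpha-like or of the beta-like UMIs (at least 100 UMIs of that kind). This threshold chose them by the share, so the shares are given as a description. Jag1+/+ replicate 1 had none of them, the other 4 libraries of E16.5 had 17, library A had 2 and library B had 5. At E16.5, 14 of the 17 were in erythroid-like clusters, 10 of them in cluster 1, whose leading genes and hepatocyte markers are given with the clusters further on, 7 of the 17 were marked as doublets, and the highest embryonic beta-like share was 48.4%, in a barcode of the shared library with 560 Hbb-y, 429 Hbb-bs, 169 Hbb-bt and 0 Hbb-bh1 UMIs and 27.0% Hba-x. The highest Hba-x share was 57.3%, in a barcode of Jag1Ndr/Ndr replicate 1 with 310 Hba-x and 203 Hbb-y UMIs. The alpha-like and beta-like shares did not go together in every barcode: 1 erythroid-like barcode had 42.8% Hba-x and 0.258% embryonic beta-like globin, and another had 28.2% and 1.44% the other way round.

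The 7 such barcodes of P3 reached higher embryonic shares. Those of library A had 90.0% and 52.8% Hba-x with 68.4% and 41.5% embryonic beta-like globin. The 5 of library B had 51.1% to 83.5% Hba-x and 85.4% to 98.3% embryonic beta-like globin. The barcode with the highest share, an erythroid-like one, held 699 Hbb-y, 1 Hbb-bh1 and 202 Hba-x UMIs beside 11 Hbb-bs and 66 Hba-a1 UMIs, and only 282 non-globin UMIs. The other 6 P3 barcodes were in B-like, neutrophil-like, macrophage-like and T/NK-like clusters, with 2531 to 9910 non-globin UMIs. None of these 6 was marked as a doublet, and whether they hold more than 1 cell was not tested. Hbb-bh1 was at most 6 UMIs in any of the 24 barcodes, so the beta-like embryonic globin in them was almost wholly Hbb-y.

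A choice by the embryonic share favours barcodes with little adult globin, so their adult globin is given as a description only. In the 4 libraries of E16.5 the median adult globin of the rich barcodes was 927, 2278, 917 and 1204 UMIs, and that of all other classes in the same libraries was 881, 1901, 954 and 1140. In library B the 5 barcodes held 29 to 85 adult globin UMIs, with a median of 52.0 against 17.0 in the other classes, whose 95th percentile was 61.1, so at least the highest of the 5 lay above it. In library A it was 55.5 against 32.0. The part of free RNA in the shares of these barcodes was not tested.

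Very few erythroid-like cells had mostly embryonic beta-like globin. At E16.5, 0 of 62355 cells with at least 100 beta-like UMIs reached 50%, which allows a share of up to 0.00481% for counting error alone, and 1 cell lay between 40% and 60%. At P3, 1 of 27347 reached 50%. The median cell of the other classes held 881 to 1901 globin UMIs at E16.5 and 17 to 32 at P3. With that much globin in cells of any class, a barcode of E16.5 needs many embryonic UMIs to reach 50%. The 0 at E16.5 therefore does not bound the share of cells that make embryonic globin, and it does not compare the stages. At a threshold of 25%, 5 and 1 cells passed. Fewer than 5 such cells per library were found, so their other genes were not tested.

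**Figure D4:**
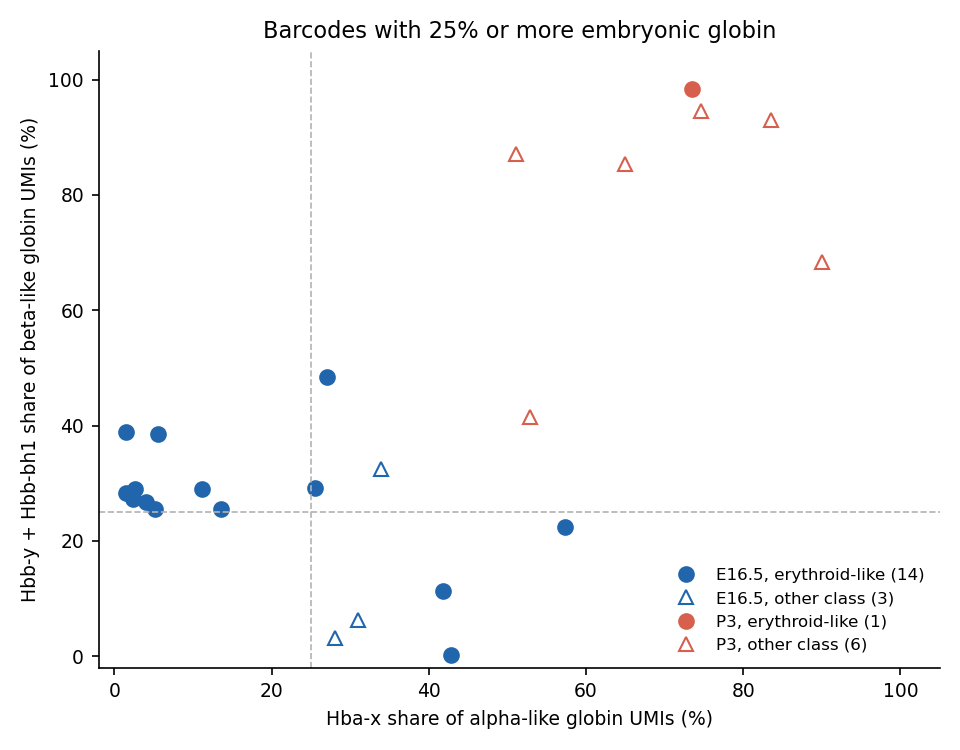
Embryonic share of the alpha-like UMIs against that of the beta-like UMIs, both in percent, for the 24 barcodes that reached 25% in either (dashed lines). Filled circles are barcodes in erythroid-like clusters and open triangles those in other classes. No barcode of E16.5 has a beta-like share above 48.4%, while the 5 of P3 library B lie between 85.4% and 98.3%. The median cell of the other classes held 881 to 1901 globin UMIs at E16.5 and 17 to 32 at P3.

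Hba-x and the embryonic beta-like genes were found partly in the same barcodes. Of the barcodes with at least 5 Hba-x UMIs, 40.0% to 63.6% also had at least 5 Hbb-y or Hbb-bh1 UMIs in the 5 libraries of E16.5, and of those with at least 5 embryonic beta-like UMIs, 17.7% to 60% had at least 5 of Hba-x. At P3 the numbers were small and differed between libraries, with 5 of 12 and 5 of 5 in library A, 16 of 55 and 16 of 18 in B, 2 of 9 and 2 of 3 in C, and 1 of 9 and 1 of 4 in D.

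Among the 6 erythroid-like clusters of E16.5, the mean embryonic share was highest in cluster 1 and lowest in cluster 6. Hba-x averaged 0.0611% ± 0.0596 of alpha-like UMIs in cluster 1, 0.0242% ± 0.0150 in cluster 7 and 0.00464% ± 0.0028 in cluster 6 (SD over 5 libraries). The ranges over libraries overlapped, and differences between clusters were not tested. Cluster 1 held 14.6% of the erythroid-like cells, 24.5% of their Hba-x UMIs, 26.1% of their Hbb-y UMIs and 9.38% of their Hbb-bh1 UMIs. Cluster 7 held 8.57% of the cells, 14.04% of the Hba-x UMIs and 14.2% of the Hbb-y UMIs. Cluster 1 was led by genes that include Nppa, H19 and Fabp1, and the summed level of 17 hepatocyte markers in it was 8864 per 1000000 non-globin UMIs, against 2507 to 6728 in the other 5 erythroid-like clusters. In the 2 hepatocyte-like clusters the sum was 68174 and 187830. The part of hepatocyte RNA in the globin values of cluster 1 was not tested. Libraries filled the clusters unequally, with cluster 6 holding 63.0% of the erythroid-like cells in Jag1Ndr/Ndr replicate 1 and 0.897% in Jag1Ndr/Ndr replicate 2. Without cluster 1 of E16.5 and cluster 5 of P3, which was led by pancreatic genes, 6 of the 7 globin genes still passed the stage test, as did 59.1% of all genes.

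The balance of alpha-like to beta-like mRNA differed between the stages by less than the spread. Alpha-like genes made up 31.2%, 28.7%, 25.2%, 26.8% and 25.6% of globin UMIs at E16.5 and 36.4%, 27.7%, 30.3% and 28.7% at P3. The stages overlapped, with means of 27.5% ± 2.51 (SD, n = 5) and 30.8% ± 3.91 (SD, n = 4; exact permutation p = 0.222, adjusted p = 0.405). The difference of -3.27 percentage points was -1.39 without library A and -2.01 without libraries A and B. Of the 2 adult beta genes, Hbb-bt made up 24.1%, 24.7%, 18.8%, 18.7% and 24.1% of adult beta-like UMIs at E16.5 and 13.7%, 9.71%, 13.98% and 21.4% at P3. Library D lay inside the range of E16.5 and the other 3 below it, and the difference between the means of 22.1% ± 3.06 and 14.7% ± 4.88 did not pass after adjustment (exact permutation p = 0.0476, adjusted p = 0.238). Without libraries A and B the difference was 4.36 percentage points (exact permutation p = 0.286). With 5 libraries against 4, the smallest p of this exact permutation test is 0.0159.

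The split between the 2 adult alpha genes varied between libraries far more than between the cell classes of a library. Hba-a2 made up 4.24%, 22.0%, 43.0%, 22.1% and 44.2% of adult alpha-like UMIs at E16.5 and 41.3%, 18.2%, 36.1% and 2.46% at P3, and the difference between the stages was within this spread (exact permutation p = 0.762, adjusted p = 0.889). Within a library, the share differed between the named classes by 0.546 to 4.74 percentage points, while over the 9 libraries it spanned 41.7 points in erythroid-like cells. For Hbb-bt the classes of a library differed by 0.418 to 7.36 points and the libraries by 14.96. Since the 2 alpha transcripts differ at 1 of 538 aligned bases, the Hba-a1 and Hba-a2 values are uncertain as values of single genes. The source of the differences between libraries was not tested.

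**Figure D5:**
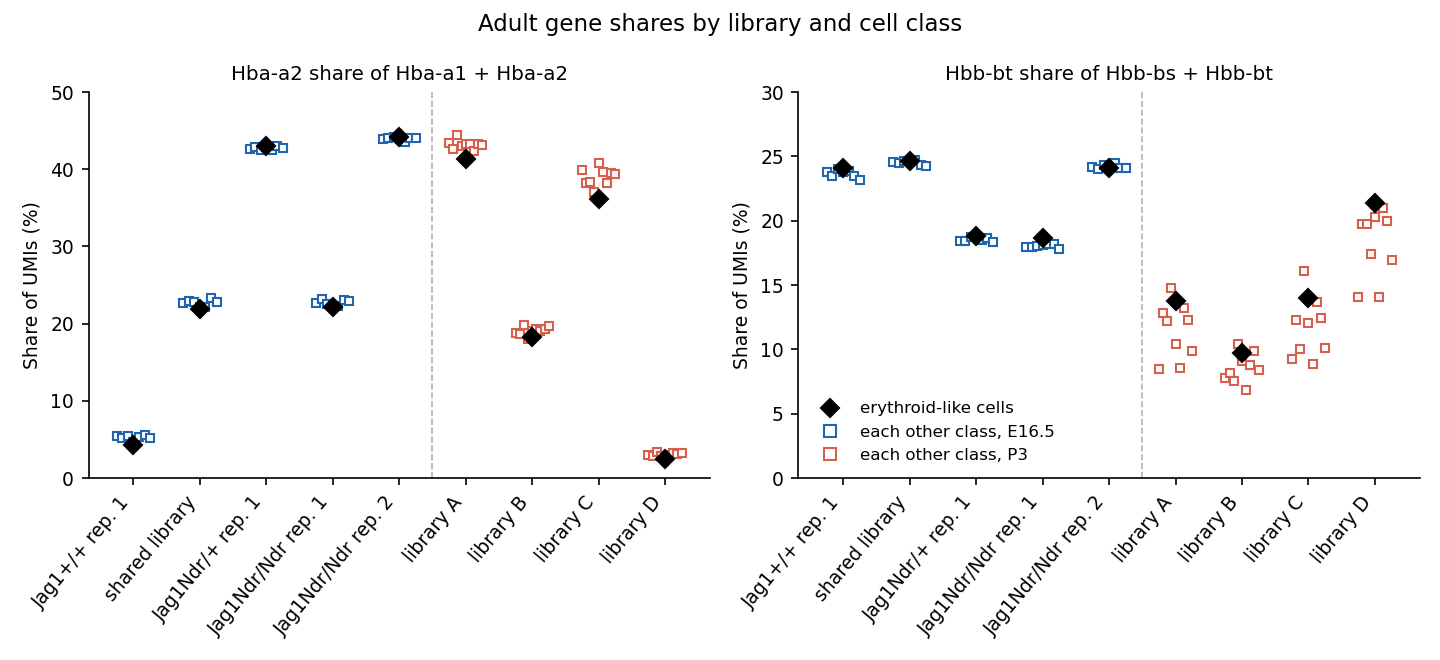
Share of Hba-a2 in the adult alpha-like UMIs (left) and of Hbb-bt in the adult beta-like UMIs (right), in percent, for each library. Black diamonds are erythroid-like cells and open squares are the other named classes of the library. For Hba-a2 the classes of a library lie within 4.74 points of each other while the libraries range from 2.46% to 44.2%, and for Hbb-bt library D is the only P3 library in the range of E16.5.

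The genotype could be compared at E16.5 only, between the 2 libraries of Jag1Ndr/Ndr and the 3 others. No globin gene passed in erythroid-like cells (edgeR quasi-likelihood test, 0 of 7, and 0 of 7 at an unadjusted p under 0.05), where 0 of all 13429 genes passed (0%), with 159 at an unadjusted p under 0.05 and 6 by DESeq2. The fitted log2 differences of the 7 genes ran from 0.28 ± 0.90 for Hbb-y to 0.92 ± 0.67 for Hba-x (SE), and their median was 0.53 against 0.01 over all genes. These values depended on single libraries. Without Jag1Ndr/+ replicate 1 the difference was 1.88 for Hba-x, 2.02 for Hbb-y and 2.29 for Hba-a2, with unadjusted edgeR p of 0.0099, 0.0055 and 0.011 and an adjusted p of 0.997 for each. Hba-x stood at 82.5 and 68.0 in Jag1Ndr/Ndr and at 9.75, 36.9 and 75.6 in the others, so the groups overlapped. The embryonic shares of summed UMIs overlapped between the groups, with exact permutation p = 0.6 for alpha-like and p = 1.0 for beta-like globin, where 2 libraries against 3 cannot go below 0.2. Averaged over cells instead of over UMIs, the alpha-like share was 0.0339% in Jag1Ndr/Ndr and 0.0157% in the others, and the beta-like share was 0.0222% and 0.0139%. The groups then did not overlap for either share, and both had the smallest exact permutation p of 0.2.

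In the 7 other named classes of E16.5, 0 of 48 pairs of a globin gene and a class passed by edgeR (0% of all 79752 gene and class pairs), with 5 of the 48 and 1322 of all pairs at an unadjusted p under 0.05. Those 5 were Hba-x in basophil/mast-like (log2 difference 2.63), hepatocyte-like (1.64) and monocyte-like cells (1.88), Hbb-y in basophil/mast-like cells (2.55) and Hbb-bh1 in monocyte-like cells (1.22), all higher in Jag1Ndr/Ndr. The basophil/mast-like values rested largely on 2 of the rich barcodes of Jag1Ndr/Ndr replicate 1, which held 102 and 63 of the 203 Hba-x UMIs and 334 and 20 of the 394 Hbb-y UMIs of that class and library. In Jag1Ndr/Ndr replicate 2 the class had 36 and 86, beside 35 and 93 in Jag1Ndr/+ replicate 1. Over the 48 pairs, 26 fitted values were higher in Jag1Ndr/Ndr and 22 lower. By gene, the higher ones were 7 of 7 for Hba-x, 6 of 7 for Hbb-y, 5 of 6 for Hbb-bh1, 6 of 7 for Hba-a2, 0 of 7 for Hba-a1, and 1 of 7 each for Hbb-bs and Hbb-bt. The classes of a library come from the same sample and are not separate observations, and the part of free RNA in these values was not tested. DESeq2 called 1 of the 48 pairs (Hba-x in monocyte-like cells, DESeq2 adjusted p = 0.041), beside 5 of all 79752 (0.00627%). edgeR without a filter on low counts called 9 of 49, all of Hba-x or Hbb-y, beside 404 of all 126484 pairs (0.319%).

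A further 3 haemoglobin genes were counted at E16.5. Hbq1a and Hbq1b, the theta globin genes of the alpha cluster, stood at 63.0 ± 32.7 and 140 ± 24.6 per 1000000 non-globin UMIs in erythroid-like cells at E16.5 (SD, n = 5) and at 30.9 ± 11.1 and 118 ± 59.6 at P3 (SD, n = 4). Hbq1a was higher at E16.5 (log2 difference 1.27 ± 0.39 SE, edgeR adjusted p = 0.014), and the difference in Hbq1b, 0.47 ± 0.35, did not pass (edgeR adjusted p = 0.272). Hbb-bh2 had 76 UMIs in all erythroid-like cells of E16.5 and was below the filter of the stage fit.

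Of 23 regulators of globin genes and a globin chaperone, 22 were tested in erythroid-like cells. At E16.5 6 were higher and 8 lower than at P3, with a median log2 difference of -0.08. That is 27.3% and 36.4% of those tested, near the 28.6% and 30.7% of all genes. The largest change was in Igf2bp1, an RNA-binding protein of fetal cells, at 18.8 ± 9.62 per 1000000 non-globin UMIs at E16.5 (SD, n = 5) and 4.59 ± 5.99 at P3 (SD, n = 4), with overlapping stages (log2 difference 2.18, edgeR adjusted p = 0.032). Its partner in fetal globin control, the RNA-binding protein Lin28b, was higher by 0.57 with overlapping stages (edgeR adjusted p = 0.011). Igf2bp3, of the same family as Igf2bp1, passed as lower at E16.5 (-0.38, edgeR adjusted p = 0.042), and Hmga2 had -0.30 and did not pass. Both are named after their values were seen. Tal1, Lmo2 and Ldb1, which form an activating complex at globin enhancers, were higher at E16.5 by 1.00, 1.04 and 1.02. So was Nfe2 (0.92), an activator that binds the beta-globin control region. None of them overlapped between the stages, which is a description only, as the share of all genes without overlap was not counted. Gata1, which works with that complex, had a log2 difference of -0.37 (edgeR adjusted p = 0.034), and Klf1, the activator of the adult beta gene, had 0.10 (edgeR adjusted p = 0.599). The values of Gata1 and Klf1 were chosen after they were seen.

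Of the genes that passed as lower at E16.5, Mbd3 and Chd4, both subunits of the NuRD complex, had log2 differences of -1.22 and -0.76, Zbtb7a, a repressor of fetal globin, had -0.57, and Myb, a factor of early progenitors, had -1.20. None of these 4 genes overlapped between the stages, where the share of all genes without overlap was not counted. Of the other repressors in the list, Bcl11a (-0.46) and Kdm1a (-0.30) also passed, while 5 did not pass, with log2 differences of 0.41 for Sox6, 0.18 for Dnmt1, -0.15 for Mbd2, -0.11 for Nr2c1 and -0.05 for Nr2c2. These 7 are named after their values were seen. Erythroid-like clusters of the stages differed in their cells, and the part of that in these values was not tested.

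Over the 17 clusters of E16.5, the genes whose level was most like that of Hbb-y by Pearson correlation of log2 values, among 9262 genes ranked, were AY036118 (r = 0.951), Rb1, Arih2, Nfe2 and Cep76. Those most like Hba-x were AY036118 (r = 0.942), Lockd, Nfe2, Cep76 and Tuba1c. The adult gene Hbb-bs was most like Alas2 (r = 0.998), the first enzyme of haem synthesis in red cells. These correlations are a description of clusters that share libraries and depth, with levels per 1000000 non-globin UMIs as the mean over libraries.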

How the data were processed

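Each deposited matrix gives unnormalized UMI counts for every gene in every barcode, written by the authors with Cell Ranger 3.1.0 at E16.5 and 3.0.2 at P3, per the file headers. The submitters' processing notes name Cell Ranger 2.1.1, R 4.1.2, Seurat and the build mm10. The annotation and the treatment of reads shared by near-identical genes are not given in the sources used here. Of the 12 samples, 9 distinct libraries were used.

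Barcodes under 1000 UMIs or over 15% mitochondrial UMIs were left out, and the top-scoring barcodes by scrublet (12.0% to 23.2% per library, a rate of 0.008 per 1000 barcodes) were removed as doublets. Clusters were computed per stage without globin genes (scanpy 1.11.5, 30 components, Leiden resolution 1) and named from fixed marker lists. The automatic doublet thresholds marked 5.53% to 28.9% and were not used. Counts were summed per library and class over cells that were not doublets, and tested with edgeR 4.0.16 (filterByExpr, TMM, quasi-likelihood, Benjamini-Hochberg, threshold 0.05) in R 4.3.3 with no covariate. Genes were matched on Ensembl identifiers, of which 22519 were in both lists. Shares were compared with exact permutation tests over libraries, two-sided, and intervals are exact Clopper-Pearson intervals at 95% that cover counting error only. DESeq2 1.42.0, other filters, library sizes without globin genes, doublets kept, all barcodes, the replicate number as a block and each library left out were tried as alternatives.

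The genes named are the 7 globin genes, further haemoglobin genes, up to 10 regulators of a list of 23 that passed the stage test with the largest change, and the 5 genes most like Hbb-y, Hba-x and Hbb-bs over clusters of E16.5, among genes of at least 20 UMIs per 1000000 in a cluster. The genes and lists were chosen with earlier results of these data known. Of the genes most like Hbb-bs, the first is given and the others are not reported here. Spread and n in the text are over libraries.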

Additional observations from a re-analysis of the deposited data

Results flagged for a closer look

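Of 24 groups of 4 or 5 libraries tested for a library far from the others by Dixon's ratio, 3 had one, where chance gives about 1 in 20. All 3 were at P3 in erythroid-like cells. The embryonic share of alpha-like globin was 0.0156% in library B and 0.00209% to 0.00374% in the others. Hbb-y stood at 30.4 UMIs per 1000000 non-globin UMIs in library B and at 2.26 to 5.38 in the others. Hbb-bs stood at 588860 in library A and at 345930 to 380920 in the others. Without the barcodes that held at least 25% embryonic globin, the embryonic share in library B was 0.0107% for alpha-like and 0.00136% for beta-like globin, against 0.0156% and 0.00787% with them.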

How the results depend on the processing

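The stage calls of the globin genes were kept under all alternatives run except for Hba-a1, whose log2 difference of 1.27 without P3 library C and 1.54 without P3 libraries A and B no longer passed, leaving 5 genes. Leaving out 1 library gave 5 to 6 called genes, and 6361 to 7835 calls over all genes in all settings. No share passed after adjustment in any setting. The following values changed direction, none of them past its threshold, and the cause was not tested. The stage difference in the share of mostly embryonic cells was 0.00409 percentage points at a threshold of 25%, and -0.00575 to 0 when 1 library was left out. That in the Hba-a2 share ran from -4.77 (without library D) to 8.30 points, with -1.39 when Jag1Ndr/+ replicate 1 was left out and -1.69 for the second Jag1Ndr/Ndr library. For the genotype, the embryonic beta-like difference was -0.00101 points without erythroid-like clusters 1 of E16.5 and 5 of P3, and -0.00332 to 0.00346 with 1 library left out (-0.00281 without Jag1Ndr/Ndr replicate 2). The log2 genotype difference of Hbb-y was -0.26 without Jag1+/+ replicate 1 and -0.073 without the shared library. That of Hba-a1 was -0.018 without the shared library and, without Jag1Ndr/Ndr replicate 1, -0.80, where Hbb-bs had -0.24 and Hbb-bt -0.017. In the other classes DESeq2 called 1 of 48 pairs of a globin gene and a class (0.00627% of all pairs) and edgeR without a filter 9 of 49 (0.319% of all pairs), against 0.

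Over all genes, the genotype calls in erythroid-like cells were 0 to 26, with 6 by DESeq2. The deviations of the 2 Jag1Ndr/Ndr libraries from their mean mirror each other by construction. Their correlations with same-numbered others (r = 0.227, 0.225 and 0.022) therefore cannot decide whether the replicate numbers pair the libraries. The numbers were not taken to pair them in the main tests. With the replicate number as a block, 6 globin genes and 6995 of all genes passed the stage test (7052 without it), and the embryonic share of beta-like globin had an exact permutation p of 0.0333 (adjusted p = 0.2). The block changed no call. The planned test of other genes in erythroid-like cells with mostly embryonic beta-like globin was not run. Fewer than 5 such cells per library were found. The settings without rich barcodes, without P3 libraries A and B and without clusters 1 and 5 were chosen after seeing the data. Libraries without a genotype limit all stage values, as do the digestion, the Cell Ranger version and the gene list, which each differed with stage. Free RNA and the unlike erythroid-like clusters of the stages, whose parts were not tested, limit them too.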
